A study of Arabidopsis thaliana with 24 samples.

Results

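The 10 genes described here encode cytosolic ATP-driven chaperones of Arabidopsis thaliana, the HSP70, HSP90 and HSP101 proteins, and were chosen by locus from the 32833 loci of the deposited count tables. Inducible members, 4 in number, are HSP101 (AT1G74310), HSP70 (AT3G12580), HSP70T-2 (AT2G32120) and HSP90.1 (AT5G52640). The other 6, called constitutive, are HSC70-1 (AT5G02500), HSP70-2 (AT5G02490), HSC70-3 (AT3G09440), HSP90.2 (AT5G56030), HSP90.3 (AT5G56010) and HSP90.4 (AT5G56000). This split follows what is generally known of heat responses, and it was made with earlier results of these data known. All 10 were found in the tables, and all 10 passed the filter on low counts at both times. RNA came from whole seedlings of the Col-0 background, 4 days old, either mutant in AGB1 (agb1, allele not named in the labels) or wild type (WT). AGB1 is the G-beta gene of Arabidopsis, whose product pairs with a G-gamma subunit in heterotrimeric G proteins. Seedlings received 40 µM of the fatty acid amide N-linolenoylethanolamine (NAE 18:3, below NAE), or the solvent alone, 0.2% DMSO, for 3 h or 1 h. Each of the 8 combinations of genotype, treatment and time had 3 libraries, 24 in all. All seedlings, controls included, had grown in shaken liquid medium with sucrose and were moved to a dish before treatment, so the controls had been handled as well.

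HSP70s bind exposed hydrophobic stretches of unfolded proteins and release them in cycles of ATP hydrolysis set by J-domain proteins and nucleotide exchange factors. HSP90s act later, on proteins close to their folded state, such as kinases and receptors. HSP101 is a hexameric disaggregase of the ClpB family that threads proteins out of aggregates together with HSP70, and Arabidopsis needs it to acquire thermotolerance. Heat shock factors bind heat shock elements, inverted repeats of the unit GAA, in front of such genes, and HSP70 and HSP90 in turn hold these factors inactive.

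Gene models came from the RefSeq annotation of TAIR10.1, since the count tables hold no coordinates. HSP101 lies at chr1:27936508-27940369 on the minus strand, HSP70 at chr3:3991117-3993886 on the minus strand, HSP70T-2 at chr2:13651442-13653945 on the minus strand and HSP90.1 at chr5:21352557-21355147 on the plus strand. HSC70-1 at chr5:553745-556623 and HSP70-2 at chr5:550035-552827 are neighbours on the minus strand. HSC70-3 lies at chr3:2902355-2905947 on the minus strand. The other HSP90 genes form a cluster: HSP90.2 at chr5:22686473-22689671 on the plus strand, HSP90.3 at chr5:22681238-22684252 on the plus strand and HSP90.4 at chr5:22677338-22680152 on the minus strand. Between 10.2% and 16.6% of the 75-base windows of HSP90.2, HSP90.3 and HSP90.4 transcripts are shared within that trio, so their counts are uncertain where reads could be split. HSC70-3 overlaps AT3G09430 on the opposite strand over 14.8% of its windows and HSP101 overlaps AT1G74300 over 0.841%. The libraries were stranded, but whether counting used strand is not given in the sources used here.

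Heat shock elements were read in the 600 bases before each start codon, a window taken after none was found in the 250 bases before the annotated starts. A complete element of 3 units, GAANNTTCNNGAA or TTCNNGAANNTTC (each the reverse complement of the other, so both strands), was present in 5 of the 10 members, against 1.39% of 27443 gene windows. Among them HSP70, HSC70-1, HSP70-2 and HSC70-3 are relatives in the HSP70 family, so they do not count as independent cases. The shares were not compared in a test. The 30-base stretches that hold these elements are shown because they are what the 5 members share in sequence. Capitals mark the element, each stretch is written 5′ to 3′ on the strand of its gene, and the sequences are those of RefSeq TAIR10.1.
HSP70 (chr3:3993845-3993874, minus strand): ttactcgtGAACGTTCTCGAAagctctttg
HSP90.1 (chr5:21352254-21352283, plus strand): aacgaaaaGAACTTTCTGGAAttcgtttgc
HSC70-1 (chr5:556553-556582, minus strand): caaccatcGAACATTCTCGAAacattttaa
HSP70-2 (chr5:552685-552714, minus strand): taattacaGAACATTCTGGAAactcaagtc
HSC70-3, first (chr3:2905893-2905922, minus strand): atcgaaccGAACATTCTCGAAcctttttaa
HSC70-3, second (chr3:2905764-2905793, minus strand): gagccatcGAACCTTCTCGAAactcgagta

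The elements begin between 141 and 295 bases before the start codon. All but that of HSP90.1 fall inside the annotated transcript, and the RefSeq model of HSP90.1 holds the coding part alone. HSP101 had a shorter element of 2 units (GAANNTTC or TTCNNGAA), a form found in 38.4% of all windows, and the 3-unit form contains it. HSP70T-2, HSP90.2, HSP90.3 and HSP90.4 had neither form in this window. Elements were thus present in both classes and missing from some members of both. A match of letters describes the window and is not evidence of binding.

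Libraries held between 18.0 and 61.9 M counts. At 3 h every agb1 library (36 to 51.9 M) was deeper than every WT library (20 to 25.8 M). Depth thus went with genotype at 3 h, and its part in the results below was not tested. Replicates are numbered in the labels, which do not say that they are separate cultures, so p-values measure the spread between these libraries. AGB1 (AT4G34460) transcript was present in agb1 libraries, at 28.7 ± 5.27 CPM under DMSO at 3 h, against 50.8 ± 1.15 CPM in WT (SD, n = 3 each). It was at 37.8 ± 2.21 CPM in agb1 and 113 ± 9.17 CPM in WT under NAE at 3 h. At 1 h it was at 44.0 ± 5.55 CPM in agb1 and 56.6 ± 1.89 CPM in WT under NAE. Under DMSO at 1 h the genotypes overlapped, with 38.8 to 47.2 CPM in agb1 and 46.4 to 51.1 CPM in WT. Replicate 2 of WT DMSO at 1 h, the shallowest library, and the 3 libraries of agb1 DMSO at 3 h differed more from their own group than other libraries did. Their chi-square values per degree of freedom were 159 to 174 and 45.7 to 80.9, against 6.03 to 27.2 for pairs of other libraries. These values come from raw counts, so at a given spread they rise with depth. The 3 libraries of agb1 DMSO at 3 h held 41.1 to 51.9 M counts, and the part of depth in their values was not tested. The summed level of 5 green tissue markers was 23083 to 25574 CPM in agb1 NAE, 17845 to 20372 CPM in agb1 DMSO, 29287 to 34357 CPM in WT NAE and 24869 to 33149 CPM in WT DMSO libraries at 3 h. All 5 were called lower in agb1 than in WT under DMSO at 3 h, by the edgeR test described below. Of all 20672 loci tested, 2300 were called lower there and 19.0% were called in either direction. None of the 5 markers was below 1 CPM in any group. At 1 h the sums ran from 19493 to 24814 CPM over all 4 groups. Sums of 7 root markers lay between 90.8 and 150.04 CPM over all groups, and all 4 seed storage markers were below 1 CPM. The part of these shifts in the results below was not tested. In whole seedlings, a change in the number of cells of a type and a change in RNA per cell cannot be told apart.

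NAE raised most of the chaperone genes at 3 h in both genotypes, and the inducible copies far more than the constitutive ones. Levels are CPM values, each count relative to the library's TMM-scaled total. A locus was called where edgeR's quasi-likelihood test, with Benjamini-Hochberg adjustment over all loci, gave a p below 0.05. In agb1 8 of the 10 members rose at 3 h and none fell, where 24.5% of all 20672 loci tested were called higher and 50.5% were called in either direction. In WT 9 of 10 rose and none fell, where 29.4% of all loci were called higher and 58.5% were called. The median log2 fold change of the members was 1.24 in agb1 and 1.86 in WT, against -0.026 and -0.0031 over all loci tested. The 4 inducible members had medians of 2.52 in agb1 and 4.17 in WT, and the 6 constitutive members had 0.90 in agb1 and 1.36 in WT. Tissue markers moved with NAE as well, in both directions. Of 7 root markers, 3 rose and 2 fell in agb1 and 3 rose and 1 fell in WT. Without replicate 2 of agb1 DMSO or replicate 1 of agb1 NAE, 3 in all were called in agb1. WOX5, a factor of the root stem cell niche, rose by 3.65 (SE 0.28) in agb1 and 4.30 (SE 0.30) in WT, while SCR, a factor of the root endodermis, had -1.09 (SE 0.12) and -1.05 (SE 0.12). Of the 5 green tissue markers, LHCB1.2 and 1 other rose in agb1, LHCB1.2 by 0.57 (SE 0.14), and LHCB2.1 fell in both genotypes, with -0.67 (SE 0.14) in agb1 and -2.11 (SE 0.15) in WT. LHCB1.2 and LHCB2.1 encode light-harvesting proteins. The part of these marker changes in the chaperone response was not tested.

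**Figure D1:**
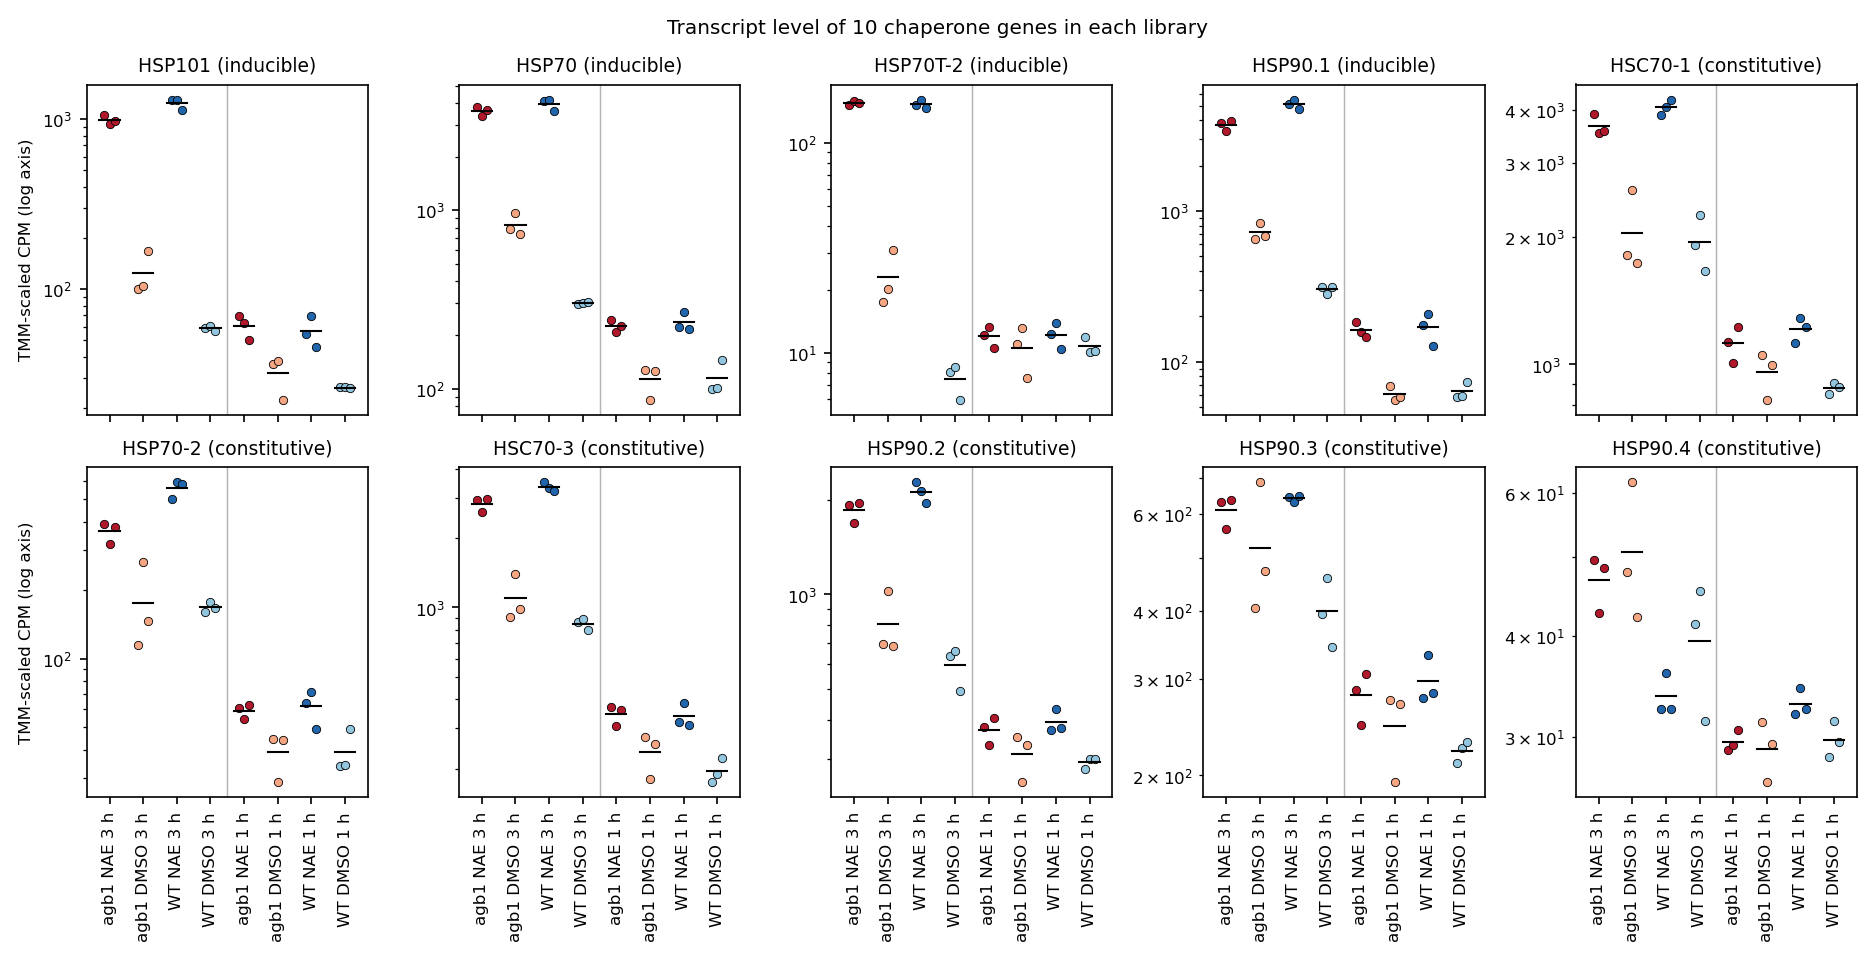
Each panel shows 1 gene, with the TMM-scaled CPM of each of 24 libraries on a log axis and a bar at the mean of 3 libraries, for agb1 and WT under NAE and DMSO at 3 h (left of the line) and 1 h (right). In the 4 inducible genes the agb1 DMSO libraries at 3 h lie above the WT DMSO libraries, and the NAE libraries of both genotypes lie above both.

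HSP101, the cytosolic disaggregase, had 1059.6, 938 and 980.0 CPM in the 3 agb1 NAE libraries at 3 h and 101, 105 and 166 CPM in the agb1 DMSO libraries. WT NAE libraries had 1294, 1305 and 1127 CPM and WT DMSO libraries 59.3, 60.9 and 57.0 CPM. All NAE libraries were above all DMSO libraries, and replicate 3 of agb1 DMSO was the highest of the DMSO libraries. The log2 fold change was 2.96 in agb1 (SE 0.17, adjusted p = 1.55e-08) and 4.36 in WT (SE 0.18, adjusted p = 8.25e-10), a fitted fold of 7.80 and 20.5. At 1 h the agb1 libraries had 69.4, 63.4 and 50.3 CPM under NAE and 36.3, 37.9 and 22.4 CPM under DMSO. WT libraries had 54.1, 69.2 and 45.9 CPM under NAE and 26.4, 26.4 and 26.1 CPM under DMSO. The groups did not overlap in either genotype, and HSP101 rose by 0.92 in agb1 (SE 0.20) and 1.09 in WT (SE 0.21) on the log2 scale.

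HSP70 (AT3G12580), the main heat-inducible cytosolic HSP70, had 3815, 3386 and 3659.8 CPM in agb1 NAE libraries at 3 h and 784, 964 and 732 CPM in agb1 DMSO libraries. WT NAE libraries had 4120.5, 4181 and 3586 CPM and WT DMSO libraries 299.7, 301 and 306 CPM. No agb1 DMSO library came within the range of WT DMSO, which was narrow. The fold changes on the log2 scale were 2.09 in agb1 (SE 0.13) and 3.68 in WT (SE 0.14). At 1 h the values were 243, 207 and 224 CPM in agb1 NAE and 128, 86.7 and 125 CPM in agb1 DMSO libraries. They were 222, 268 and 215 CPM in WT NAE and 99.3, 100.4 and 145 CPM in WT DMSO libraries. HSP70 had thus risen after 1 h by 0.99 in agb1 and 1.02 in WT (log2; SE 0.17 and 0.17), with no overlap between the treatments.

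HSP70T-2, a truncated HSP70, was the least abundant inducible member. Its levels at 3 h were 151, 158 and 155 CPM in agb1 NAE and 17.5, 20.2 and 30.9 CPM in agb1 DMSO libraries. In WT they were 151, 161 and 146 CPM under NAE and 8.07, 8.55 and 5.99 CPM under DMSO. The NAE libraries of the genotypes overlapped, while the DMSO libraries did not. HSP70T-2 rose by 2.72 in agb1 (SE 0.18) and by 4.30 in WT (SE 0.20). At 1 h all 12 libraries lay between 7.56 and 13.9 CPM. The log2 fold changes then were 0.18 in agb1 (SE 0.17, adjusted p = 0.584) and 0.17 in WT (SE 0.17, adjusted p = 0.523), so it was the inducible member without a call at 1 h.

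HSP90.1, the heat-inducible cytosolic HSP90, had 3829, 3414 and 3975 CPM in agb1 NAE libraries at 3 h and 651, 831 and 683 CPM in agb1 DMSO libraries. WT NAE libraries had 5155, 5489 and 4772 CPM and WT DMSO libraries 314, 279.9 and 314 CPM. None of the 4 groups overlapped another. The rise was 2.33 in agb1 (SE 0.13) and 4.05 in WT (SE 0.14) on the log2 scale. At 1 h the agb1 libraries had 182, 157 and 146 CPM under NAE and 68.8, 56.0 and 58.7 CPM under DMSO. WT libraries had 174, 207 and 127 CPM under NAE and 58.5, 59.3 and 73.7 CPM under DMSO. Its 1 h changes of 1.40 in agb1 and 1.40 in WT (SE 0.16 and 0.16) were higher than those of the other 9 members at that time, a difference between genes that was not tested.

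The constitutive HSP70s rose as well, by less. HSC70-1, a cognate HSP70 made without heat, averaged 3679 ± 209 CPM in agb1 NAE and 2048 ± 471 CPM in agb1 DMSO libraries at 3 h (SD, n = 3 each). WT averaged 4078 ± 168 CPM under NAE and 1949 ± 302 CPM under DMSO. The log2 changes were 0.80 (SE 0.16) in agb1 and 1.02 (SE 0.16) in WT. HSC70-3, another cognate form, rose by 1.32 in agb1 (SE 0.15), with 2823 ± 199.5 CPM under NAE and 1096 ± 266 CPM under DMSO. In WT it rose by 1.93 (SE 0.15), with 3335 ± 144 CPM under NAE and 852 ± 47.2 CPM under DMSO. Among the constitutive members these HSC70-3 changes were the highest at 3 h.

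HSP70-2, the neighbour of HSC70-1, had 389, 319 and 378 CPM in agb1 NAE libraries at 3 h and 114, 267 and 146 CPM in agb1 DMSO libraries, of which replicate 2 stood high. WT NAE libraries had 503, 594 and 585 CPM and WT DMSO libraries 161, 178 and 167 CPM. NAE and DMSO libraries did not overlap in either genotype, and the gene rose by 1.00 in agb1 (SE 0.23, 1.44 without that replicate) and 1.69 in WT (SE 0.24).

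The 3 constitutive HSP90s, which lie in 1 cluster, differed among themselves. HSP90.2 rose by 1.16 in agb1 (SE 0.17) and 1.78 in WT (SE 0.17). It averaged 1854 ± 149 CPM in agb1 NAE, 804 ± 192 CPM in agb1 DMSO, 2114 ± 159 CPM in WT NAE and 598 ± 91.5 CPM in WT DMSO libraries at 3 h. HSP90.3 rose in WT by 0.65 (SE 0.17, adjusted p = 0.00481), with 645, 633 and 647 CPM under NAE and 394, 459 and 343 CPM under DMSO. In agb1 its change was 0.19 (SE 0.17, adjusted p = 0.379), with 631, 564 and 637 CPM under NAE and 405, 686 and 472 CPM under DMSO. Replicate 2 of agb1 DMSO was above all 3 agb1 NAE libraries, and without it the change was 0.44 and was called. HSP90.4, the least abundant of the trio, was not called at 3 h, with -0.15 in agb1 (SE 0.15, adjusted p = 0.431) and -0.27 in WT (SE 0.16, adjusted p = 0.161). It had 42.7 to 49.6 CPM in agb1 NAE, 42.2 to 61.8 CPM in agb1 DMSO, 32.5 to 36.0 CPM in WT NAE and 31.4 to 45.5 CPM in WT DMSO libraries. Without replicate 3 of WT DMSO its change in WT was -0.42 (adjusted p = 0.0305) and was called.

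**Figure D2:**
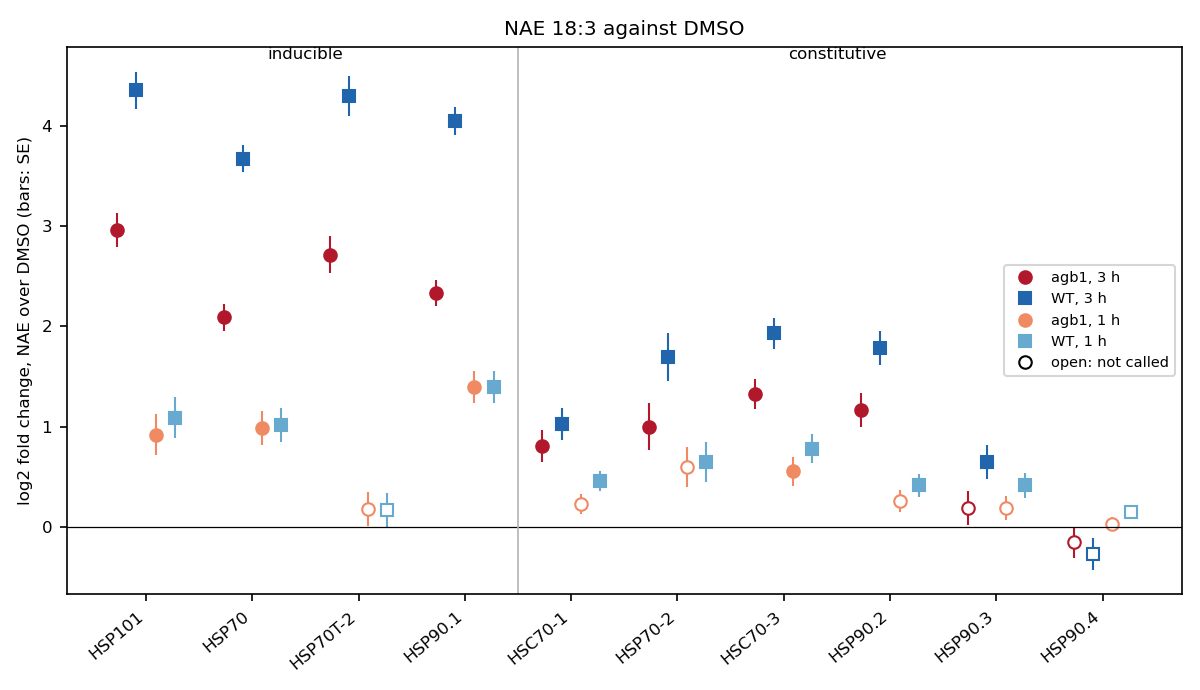
The log2 fold change of NAE over DMSO is plotted for each of the 10 genes in agb1 and WT at 3 h and 1 h, with bars of 1 SE and open symbols for changes that were not called. At 3 h the inducible genes range from 2.09 to 2.96 in agb1 and from 3.68 to 4.36 in WT, above the 6 constitutive genes, whose highest values are 1.32 in agb1 and 1.93 in WT.

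At 1 h the response was smaller and again led by inducible members. In agb1 4 of 10 members rose at 1 h and none fell, where 8.89% of all 21255 loci were called higher and 13.8% were called. These were HSP101, HSP70, HSP90.1 and HSC70-3. In WT 8 of 10 rose, where 12.4% of all loci were called higher and 20.5% were called, and HSP70T-2 and HSP90.4 were the exceptions. The members' median was 0.40 in agb1 and 0.55 in WT, against -0.0022 and -0.016 over all loci. Of the root markers, 2 rose in agb1 and 3 in WT at 1 h and none fell. WOX5 rose by 1.78 (SE 0.14) in agb1 and 1.09 (SE 0.15) in WT, and TIP2;3, an aquaporin, by 0.74 (SE 0.18) and 1.06 (SE 0.21). The agb1 call of TIP2;3 was lost without replicate 3 of agb1 DMSO (0.65) or replicate 1 of agb1 NAE (0.63). HSC70-3 had 346 ± 34.2 CPM in agb1 NAE, 236 ± 49.5 CPM in agb1 DMSO, 338 ± 40.9 CPM in WT NAE and 195 ± 24.8 CPM in WT DMSO libraries. Its changes were 0.55 in agb1 (SE 0.15) and 0.78 in WT (SE 0.15). In WT, HSC70-1 rose by 0.45, HSP70-2 by 0.64, HSP90.2 by 0.41 and HSP90.3 by 0.41 on the log2 scale. In agb1 the changes of these 4 genes were 0.23, 0.60, 0.26 and 0.19, none of them called by edgeR (adjusted p from 0.0750 for HSP70-2 to 0.386 for HSP90.3). HSP70-2 was called in agb1 by DESeq2 (0.59, adjusted p = 0.00906) and in a fit of the 2 groups alone (0.60, adjusted p = 0.0323). Without replicate 1 of WT DMSO or replicate 2 of WT NAE, 5 members were called in WT, and HSP90.2, HSP90.3 and HSP70-2 were not. HSP90.3 also missed the threshold without replicate 2 of WT DMSO (0.42, adjusted p = 0.0663), and HSP70-2 did without that library (0.56, adjusted p = 0.110) or replicate 1 of WT NAE (0.62, adjusted p = 0.0930). In all, HSP70-2 missed it under 8 of 12 alternatives. In agb1 the call of HSC70-3 was lost without replicate 2 of DMSO (0.40, adjusted p = 0.0592) and without replicate 1 or 3 of NAE (0.50 and 0.53). WT DMSO libraries at 1 h also showed lower values in longer transcripts, with Spearman rho of -0.34, -0.18 and -0.076 between a locus's deviation and its length. Loci of the members' lengths, 2103 to 3284 bases, had a median change of 0.049 in WT at 1 h. In a fit with an offset for this trend, added after the data were seen, HSP90.3 (0.36, adjusted p = 0.0691) and HSP70-2 (0.60, adjusted p = 0.0698) were not called in WT. At 3 h rho went with treatment, from 0.048 to 0.13 in DMSO libraries and from -0.21 to -3.5e-05 in NAE libraries. Loci of the members' lengths then had a median NAE change of -0.12 in agb1 and -0.12 in WT.

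No difference between the genotypes in the 1 h response was called for the members, and few were called over all loci. The difference of the NAE effect, agb1 minus WT, was called for 0 of 10 members by edgeR at 1 h, where 0.0753% of all loci were called. With so low a share over all loci, 0 of 10 does not set the members apart. None had an unadjusted p under 0.05, DESeq2 called 0, and the differences ran from -0.23 to 0.011. The 1 h difference was -0.17 for HSP101 (SE 0.29), and for HSP90.1 it was 0.0025 (SE 0.22).

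At 3 h the same difference was called for 4 of 10 members, all 4 lower in agb1, where 1.65% of all loci were called lower and 2.97% were called. These were the 4 inducible members. The difference was -1.39 for HSP101 (SE 0.23, adjusted p = 0.00672) and -1.59 for HSP70 (SE 0.18, adjusted p = 0.000839). It was -1.58 for HSP70T-2 (SE 0.25, adjusted p = 0.00622) and -1.72 for HSP90.1 (SE 0.18, adjusted p = 0.000610). On a log2 scale NAE thus raised each inducible gene by less in agb1 than in WT. All 4 differences were called under each of 18 alternatives, with values from -1.46 to -1.06 for HSP101 and from -1.77 to -1.55 for HSP90.1. None of the 6 constitutive members was called. HSP70-2 differed by -0.69 (SE 0.33, adjusted p = 0.269), HSP90.2 by -0.62 (SE 0.24, adjusted p = 0.169), HSC70-3 by -0.61 (SE 0.21, adjusted p = 0.136) and HSP90.3 by -0.46 (SE 0.24, adjusted p = 0.320). Replicate 2 of agb1 DMSO was the highest library of its group for all of these 4 genes and for HSC70-1. Without it the difference was -0.21 for HSP70-2, -0.36 for HSP90.2, -0.34 for HSC70-3, -0.16 for HSP90.3 and 0.030 for HSC70-1, with none called. HSC70-1 differed by -0.22 (SE 0.23) and HSP90.4 by 0.11 (SE 0.22). Over all loci tested the median difference was -0.023. Among the tissue markers, 1 green marker, LHCB2.1, had a called difference, of 1.44.

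This difference is built from the genotypes' levels under NAE and under DMSO, which were also compared separately with the same libraries. Under DMSO at 3 h, 4 of 10 members were higher in agb1 than in WT and none was lower, where 7.84% of all loci were called higher and 19.0% were called. Again these were the 4 inducible members. HSP70T-2 was higher by 1.54 (SE 0.19, adjusted p = 0.000106), HSP70 by 1.40 (SE 0.13, adjusted p = 1.17e-05) and HSP101 by 1.01 (SE 0.16, adjusted p = 0.000874) on the log2 scale. HSP90.1 lay between HSP70 and HSP101, at a fold of 2.30 (adjusted p = 3.85e-05). All 3 agb1 libraries were above all 3 WT libraries for each of them. The constitutive members ran from 0.0075 for HSP70-2 to 0.37 for HSP90.2 (SE 0.17, adjusted p = 0.137), and none was called. Without replicate 2 of agb1 DMSO, HSP70-2 had -0.44 (adjusted p = 0.0400) and was called lower. The other constitutive members then ran from -0.20 for HSC70-1 to 0.14 for HSP90.2, with 0.079 for HSC70-3 and 0.068 for HSP90.3. The agb1 DMSO libraries of this comparison had the highest chi-square values at 3 h, which also rise with depth. Their green marker sums of 17845 to 20372 CPM were below those of WT DMSO libraries, 24869 to 33149 CPM. Neither was tested as a part of the result. All 4 calls were made whichever single library was left out.

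Under NAE at 3 h, 2 of 10 members were lower in agb1 than in WT and none was higher, where 13.7% of all loci were called lower and 22.9% were called. They were HSP90.1, with a log2 fold change of -0.52 (SE 0.12, adjusted p = 0.0102), and HSP70-2, with -0.69 (SE 0.23, adjusted p = 0.0483). HSP101 had -0.38 (SE 0.16, adjusted p = 0.103), HSP70 had -0.19 (SE 0.12, adjusted p = 0.298) and HSP70T-2 had -0.039 (SE 0.17, adjusted p = 0.892). Leaving out any 1 of the 6 libraries ended the call of HSP70-2, and leaving out replicate 2 of agb1 NAE also ended that of HSP90.1 (-0.45, adjusted p = 0.0551). HSP90.4 was at 0.42 (SE 0.16, adjusted p = 0.0691), with all 3 agb1 libraries above all 3 WT libraries. It was called higher by DESeq2 (0.42, adjusted p = 0.0471) and in a fit with the replicate number as a block (0.43, adjusted p = 0.0465). A fit of the 6 libraries alone called 5 members, HSP90.4 higher (0.45, adjusted p = 0.00521) and HSP90.1, HSP70-2, HSP101 (-0.35) and HSC70-3 (-0.27) lower. That fit called more over all loci as well, 5936 against 4743 in the fit of 12 libraries. At 1 h edgeR called 0 of 10 members between the genotypes under NAE, where 8.97% of all loci were called, and 0 under DMSO, where 11.4% were called. Under NAE 1 member had an unadjusted p under 0.05 and under DMSO 0 had, and DESeq2 called 0 in both.

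**Figure D3:**
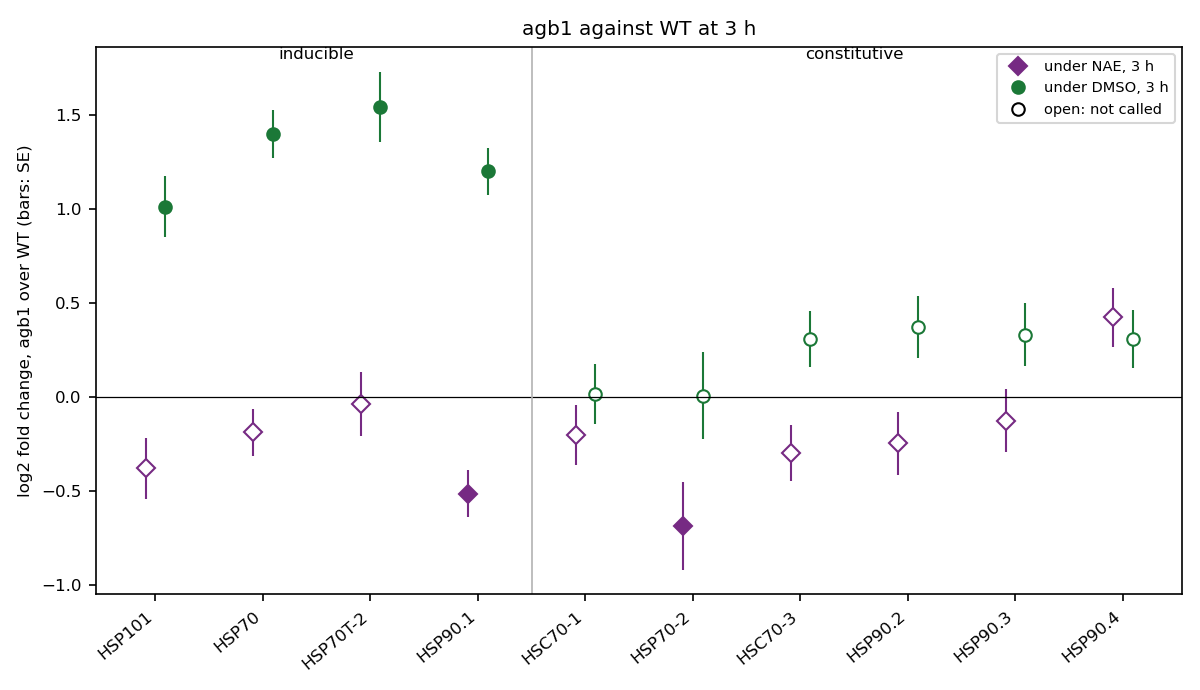
The log2 fold change of agb1 over WT at 3 h is plotted for each gene under NAE (diamonds) and DMSO (circles), with bars of 1 SE and open symbols where not called. Under DMSO the 4 inducible genes lie between 1.01 and 1.54 and the constitutive genes between 0.0075 and 0.37, while under NAE the 10 genes lie between -0.69 and 0.42.

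The NAE effect was larger at 3 h than at 1 h for most members. In agb1 the change of the effect, 3 h minus 1 h, was called for 7 of 10 members, all upward. Of all 21700 loci in the fit of 24 libraries, 3682 were called upward in agb1 and 34.5% in either direction. In WT the change was called for 8 of 10 members, all upward. Of the same 21700 loci, 5474 were called upward in WT and 48.0% in either direction. The inducible members' changes ran from 0.95 for HSP90.1 (SE 0.20) to 2.55 for HSP70T-2 (SE 0.26) in agb1. In WT they ran from 2.68 for HSP90.1 (SE 0.21) to 4.16 for HSP70T-2 (SE 0.27). HSP70T-2, not called at 1 h, thus had the highest gain of the 10 members in both genotypes. HSP90.3 and HSP90.4 were not called in either genotype, and HSC70-1, at 0.59 in agb1 (SE 0.19), lost its call there when replicate 1 or 3 of DMSO at 3 h, replicate 1 of NAE at 3 h, replicate 1 of DMSO at 1 h or replicate 2 of NAE at 1 h was left out (0.48 to 0.54). HSP70-2 was called in WT, at 1.08 (SE 0.33), and not in agb1, at 0.42 (SE 0.33). Without replicate 2 of agb1 DMSO at 3 h the agb1 value of HSP70-2 was 0.86 and was called. HSP90.4 was called lower in WT without replicate 3 of WT DMSO (-0.53) or replicate 2 of WT NAE (-0.48) at 3 h, against -0.38 with all libraries.

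DMSO levels also differed between the times, which were counted in separate tables and scaled here together, so these ratios are given without a test. The DMSO level at 3 h over that at 1 h was 11.8 in agb1 and 4.74 in WT for HSP90.1, and 7.30 and 2.63 for HSP70. It was 3.85 in agb1 and 2.24 in WT for HSP101, and 2.17 and 0.702 for HSP70T-2. The constitutive members ran from 1.75 for HSP90.4 to 4.64 for HSC70-3 in agb1, and from 1.33 for HSP90.4 to 4.36 for HSC70-3 in WT. The median ratio over all loci of at least 1 CPM was 1.04 in agb1 and 1.01 in WT. The agb1 ratio was above the WT ratio for all members apart from HSC70-1, which had 2.14 in agb1 and 2.21 in WT. All ratios of the members exceeded 1 apart from that of HSP70T-2 in WT.

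Levels between genes are compared per kb of transcript. Under NAE at 3 h HSP90.1 was first of the 10 in agb1, at 1778 ± 139 CPM per kb, and in WT, at 2444 ± 171 CPM per kb, without overlap with the next gene. Per kb of coding sequence, since the HSP90.1 model holds no untranslated part, HSC70-1 (1881) and HSP70 (1854) were above HSP90.1 (1778) in agb1, and in WT HSP90.1 (2444) stayed above HSC70-1 (2085). Per kb of transcript HSC70-1 followed with 1439.8 CPM per kb in agb1 and 1596 in WT, and its libraries overlapped those of HSP70, at 1437 and 1572. The order then ran in both genotypes through HSC70-3, HSP90.2, HSP101, HSP90.3, HSP70-2 and HSP70T-2 to HSP90.4, without overlap between neighbours. In the other 6 groups HSC70-1 was first. Under DMSO at 3 h it had 802 ± 184 CPM per kb in agb1 and 763 ± 118 in WT. In agb1 the next 4, HSP90.1 at 343, HSC70-3 at 340.3, HSP70 at 328 and HSP90.2 at 289 CPM per kb, each overlapped their neighbours. In WT HSP90.1 at 144 and HSP70 at 119.9 CPM per kb stood below HSC70-3, HSP90.2 and HSP90.3, though HSP90.1 overlapped HSP90.3. Per coding kb HSP90.1 was below HSC70-3, HSP70 and HSP90.2 in agb1 DMSO libraries and below HSP70 in WT DMSO libraries. HSP70T-2 was last in every DMSO group, at 10.5 CPM per kb in agb1 and 3.45 in WT at 3 h.

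The inducible copy's part in its own family was computed from these per-kb levels. The HSP70 sum leaves out HSP70T-2 and HSP70B, a further heat-inducible cytosolic HSP70 that is not a member. At 3 h HSP70B had 323 CPM in agb1 NAE and 364 CPM in WT NAE libraries. HSP70 made up 36.8% ± 0.208 of the summed level of HSP70, HSC70-1, HSP70-2 and HSC70-3 in agb1 NAE libraries at 3 h and 21.5% ± 1.68 in agb1 DMSO libraries (SD, n = 3 each). In WT it made up 35.5% ± 2.15 under NAE and 9.95% ± 1.18 under DMSO. HSP90.1 made up 66.0% ± 0.291 of the summed level of the 4 cytosolic HSP90 genes in agb1 NAE and 40.6% ± 2.64 in agb1 DMSO libraries. In WT it made up 70.6% ± 1.21 under NAE and 27.5% ± 4.07 under DMSO. After 3 h of NAE the inducible copy was thus the main source of transcript among the 4 cytosolic HSP90 genes in both genotypes, and HSP70 about equalled HSC70-1. At 1 h the HSP70 share was 13.5% ± 0.847 in agb1 NAE, 8.77% ± 0.598 in agb1 DMSO, 13.3% ± 0.770 in WT NAE and 9.73% ± 1.70 in WT DMSO libraries. The HSP90.1 share was 23.3% ± 2.81, 11.9% ± 1.25, 22.9% ± 3.32 and 13.0% ± 1.24 in the same groups. The sums themselves were 3898 ± 227 CPM per kb in agb1 NAE and 1541 ± 345 in agb1 DMSO libraries for the HSP70s at 3 h, and 4429 ± 105 in WT NAE and 1215 ± 134 in WT DMSO libraries. For the HSP90s they were 2696 ± 208 CPM per kb in agb1 NAE, 852 ± 173 in agb1 DMSO, 3461 ± 207 in WT NAE and 527 ± 50.2 in WT DMSO libraries. The HSP90.1 model has no untranslated part, which raises its level per kb. With coding lengths its share at 3 h was 60.5% in agb1 NAE, 35.2% in agb1 DMSO, 65.5% in WT NAE and 23.2% in WT DMSO libraries.

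**Figure D4:**
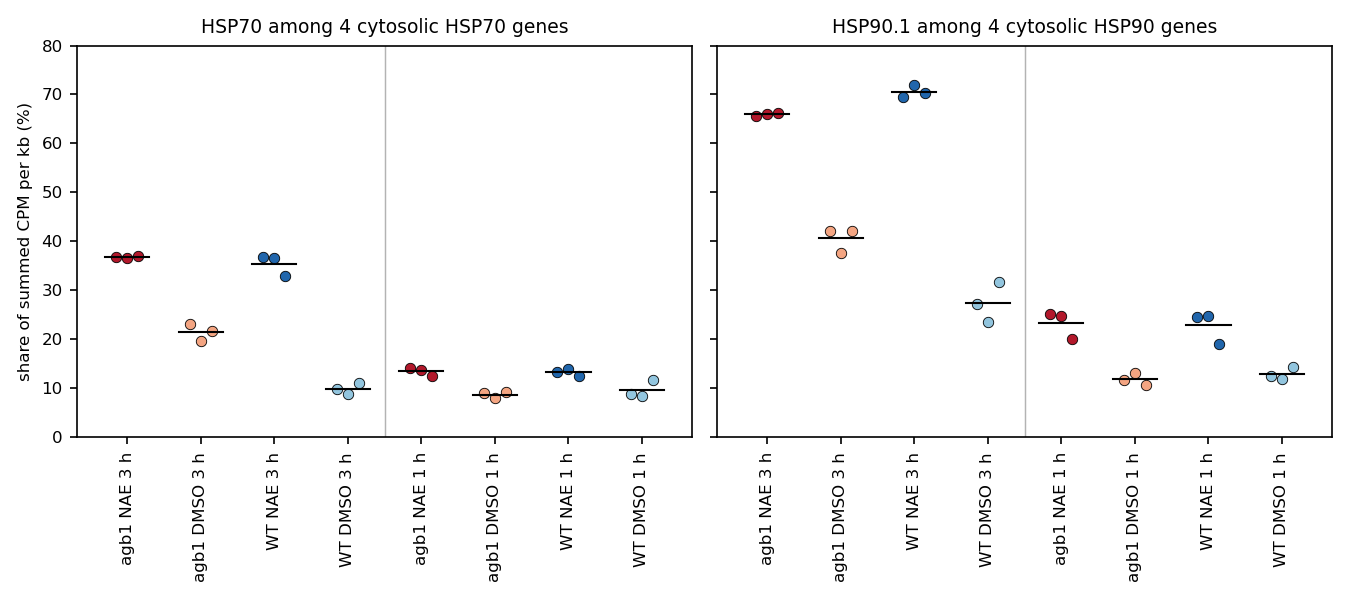
The left panel shows HSP70 as a percentage of the summed CPM per kb of 4 cytosolic HSP70 genes and the right panel HSP90.1 as a percentage of 4 cytosolic HSP90 genes, with a point per library and a bar at the mean. At 3 h the agb1 DMSO libraries, at 19.7% to 23.1% for HSP70, lie between the NAE libraries and the WT DMSO libraries, at 8.80% to 11.2%.

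Genes that work with these chaperones were read from lists. Of 17 co-chaperones at 3 h, 12 rose and 1 fell in agb1, with a median of 0.81, and 12 rose and 1 fell in WT, with a median of 1.41. At 3 h 24.5% of all loci were called higher in agb1 and 29.4% in WT, and 50.5% and 58.5% were called in either direction. HOP3, which links HSP70 to HSP90, rose by 2.05 (SE 0.11) in agb1, with 564 ± 42.0 CPM under NAE and 132 ± 3.61 CPM under DMSO. In WT it rose by 3.28 (SE 0.11), with 923 ± 20.4 CPM under NAE and 92.4 ± 10.2 CPM under DMSO. BAG6, a BAG-domain protein, rose by 3.81 (SE 0.19) in agb1 and 4.87 (SE 0.20) in WT. FES1A, a partner of cytosolic HSP70, rose by 2.60 (SE 0.14) in agb1 and 3.92 (SE 0.15) in WT. The difference agb1 minus WT was called lower for 9 of the 17 co-chaperones, with a median of -0.60, and higher for none, where 1.65% of all loci were called lower. The count was 3 without replicate 1 or 2 of agb1 NAE, replicate 2 of WT DMSO or replicate 2 of WT NAE, 4 without replicate 3 of WT DMSO and 5 without replicate 1 of WT NAE. Under DMSO at 3 h 6 of the 17 were called higher in agb1 than in WT, where 7.84% of all loci were. Under NAE at 3 h 6 were called lower in agb1, where 13.7% of all loci were, and none went the other way in either case. At 1 h 7 co-chaperones rose and none fell in agb1, against 10 higher and 1 lower in WT, with medians of 0.22 and 0.31, where 8.89% of all loci were called higher in agb1 and 12.4% in WT. ROF2, a peptidyl-prolyl isomerase that binds HSP90, rose by 0.99 (SE 0.10) in agb1 and 0.82 (SE 0.10) in WT at 1 h.

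Among 11 heat shock factor genes, 8 rose and 1 fell at 3 h in agb1 and 8 rose and 1 fell in WT, with medians of 1.87 and 2.02. Of all loci 24.5% were called higher in agb1 and 29.4% in WT, and 50.5% and 58.5% in either direction. HSFA2, an amplifier of the heat response, rose by 2.94 (SE 0.17) in agb1 and 4.08 (SE 0.18) in WT, and HSFB2A, a class B factor, by 3.13 (SE 0.18) and 3.46 (SE 0.19). At 1 h HSFA7A had already risen by 2.01 (SE 0.11) in agb1 and 1.82 (SE 0.12) in WT, more than any of the 10 chaperones at that time. The difference at 3 h was called for 1 of the 11 factors, with a median of -0.31, where 2.97% of all loci were called. That call was lost without replicate 1 or 2 of agb1 NAE or replicate 2 of WT DMSO, and 2 factors were called without replicate 2 of agb1 DMSO. Of 3 further heat response genes, HSA32, which sustains acquired thermotolerance together with HSP101, rose by 2.52 (SE 0.13) in agb1 and 3.78 (SE 0.14) in WT. MBF1C, a transcriptional coactivator, rose by 2.04 (SE 0.17) in agb1 and 3.93 (SE 0.19) in WT at 3 h, and by 1.76 (SE 0.15) and 1.68 (SE 0.15) at 1 h. HSBP was not called in any of these 4 comparisons.

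All 12 small heat shock protein genes, which hold unfolded proteins for HSP70 and HSP101, rose at 3 h in both genotypes, with medians of 3.53 in agb1 and 5.35 in WT, where 24.5% and 29.4% of all loci were called higher. HSP17.4, with no counts in WT DMSO libraries at 3 h, enters the WT median at its fitted value, and at a floor of 3 counts over the group that median was the same. HSP23.5, a mitochondrial form, had 1157 ± 33.2 CPM under NAE and 109 ± 3.02 CPM under DMSO in agb1, and 1548 ± 118 CPM under NAE and 45.0 ± 1.52 CPM under DMSO in WT. Its change was 3.37 (SE 0.10) in agb1 and 5.06 (SE 0.11) in WT. HSP17.6B, a cytosolic form, rose by 3.56 (SE 0.13) in agb1 and 5.87 (SE 0.15) in WT. The difference at 3 h was called lower for 7 of the 12 and higher for none, with a median of -1.88, where 1.65% of all loci were called lower. Under DMSO at 3 h 7 of the 12 were called higher in agb1 than in WT, where 7.84% of all loci were. Under NAE at 3 h 7 were called lower in agb1, where 13.7% of all loci were, and none went the other way in either case. At 1 h 7 rose in agb1 and 4 in WT, where 8.89% and 12.4% of all loci were called higher. The agb1 count was 4 without replicate 1 of agb1 DMSO. The WT count was 2 without replicate 1 or 2 of WT DMSO or replicate 1 of WT NAE, or with no low-count filter, and 1 without replicate 3 of WT DMSO or replicate 2 of WT NAE. HSP15.7, a low-abundance form, rose by 0.53 (SE 0.15) in WT at 1 h, a call lost in the same cases that left 1. The 1 h difference was called for none of the 12 by edgeR, where 0.0753% of all loci were called.

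Chaperones of the same families in organelles followed only in part. CLPB4, the mitochondrial relative of HSP101, rose by 3.22 (SE 0.13) in agb1 and 3.88 (SE 0.13) in WT at 3 h. CLPB3, the plastid relative, rose by 0.51 (SE 0.12) in WT and had 0.15 in agb1 (adjusted p = 0.327). HSP70B, a further heat-inducible cytosolic HSP70, rose by 3.82 (SE 0.28) in agb1 and 4.52 (SE 0.29) in WT at 3 h and was not called at 1 h. It was called at 3 h neither for the difference agb1 minus WT, at -0.69, nor between the genotypes under DMSO, at 0.46. Without replicate 2 of agb1 DMSO the DMSO value was 0.70 and was called (adjusted p = 0.0480). HSP70T-1, in the same list, did not pass the filter on low counts. Both HSP110-type genes rose in both genotypes at 3 h, HSP70-15 by 0.72 (SE 0.13) in agb1 and 1.23 (SE 0.13) in WT and HSP70-14 by 0.54 (SE 0.089) and 0.65 (SE 0.09). Of 7 organelle HSP70s, 4 rose in agb1 and 6 in WT, where 24.5% and 29.4% of all loci were called higher. The agb1 count was 2 without replicate 1 of agb1 NAE and the WT count was 3 without replicate 1 of WT DMSO. In the mitochondrion mtHSC70-2 rose by 1.58 (SE 0.13) in agb1 and 1.94 (SE 0.13) in WT, and mtHSC70-1 by 1.55 (SE 0.16) and 1.57 (SE 0.16). BIP2, of the endoplasmic reticulum, rose by 0.51 (SE 0.13) in WT at 1 h, a call lost without replicate 1 or 2 of WT DMSO or replicate 2 or 3 of WT NAE (0.43 to 0.47). BIP2, like HSP70-14 and HSP70-15, has a close copy in the genome, so these counts are uncertain where reads could be split. HSP90.6 of the mitochondrion rose by 1.09 (SE 0.20) in agb1 and 1.204 (SE 0.20) in WT. HSP90.7, the HSP90 of the endoplasmic reticulum, fell at 3 h in both genotypes, with 377 ± 12.1 CPM under NAE and 784 ± 184 CPM under DMSO in agb1, and 356 ± 10.6 CPM under NAE and 669 ± 54.5 CPM under DMSO in WT. Its changes were -1.10 (SE 0.15) in agb1 and -0.95 (SE 0.15) in WT. At 1 h HSP90.7 was called higher in WT, with 0.30 (SE 0.10), 426 ± 44.2 CPM under NAE and 344 ± 38.6 CPM under DMSO, and its libraries overlapped. That call was lost under 6 of 12 alternatives, among them without replicate 1 or 2 of WT DMSO and replicate 2 or 3 of WT NAE (0.23 to 0.27). In agb1 it had 0.17 (SE 0.10) at 1 h and was not called.

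**Figure D5:**
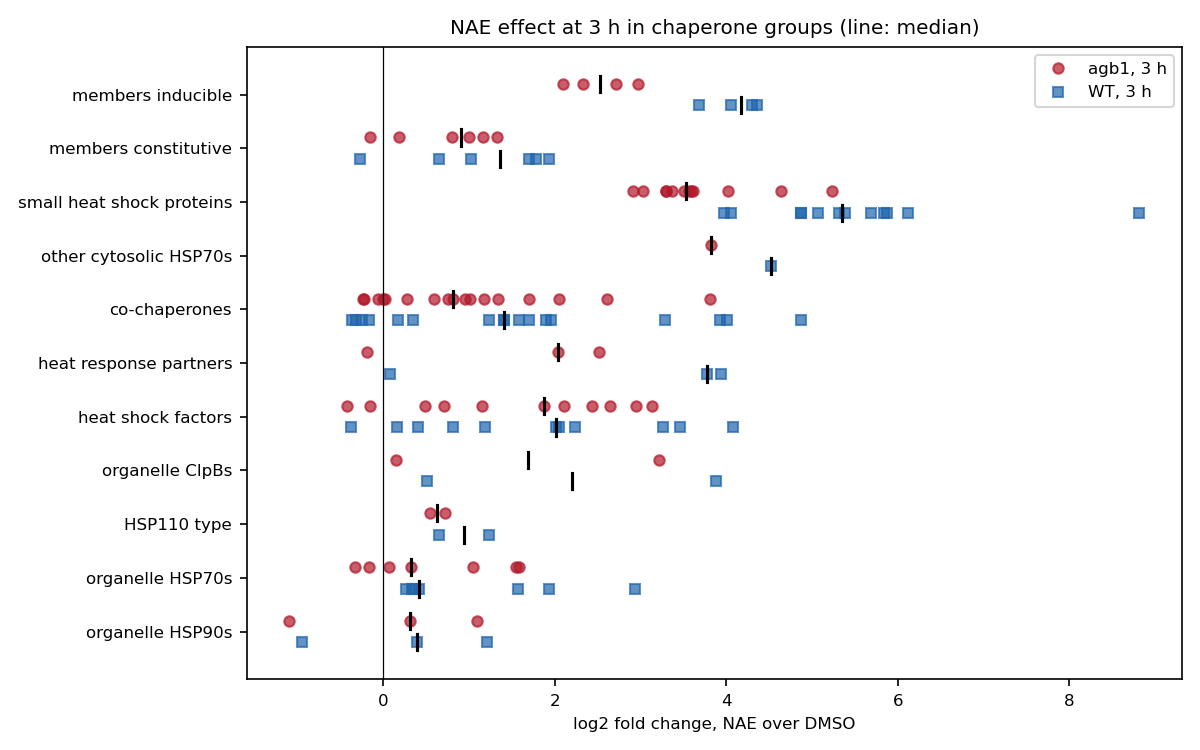
Each symbol is 1 gene's log2 fold change of NAE over DMSO at 3 h, circles for agb1 and squares for WT, grouped by list, with a black bar at the list's median; the WT point farthest right is HSP17.4, a fitted value against no counts in WT DMSO. The median of the inducible members is 2.52 in agb1 and 4.17 in WT, that of the constitutive members 0.90 and 1.36, and HSP90.7, the lowest organelle HSP90, lies at -1.10 in agb1 and -0.95 in WT.

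The loci most like HSP101 and HSC70-1 across the 24 libraries were taken as those with the highest Pearson correlation of log2(CPM + 1) among 15521 loci that were not members and averaged at least 5 CPM. For HSP101 they were BAG6 (r = 0.995), ATERDJ3A (r = 0.995), a J-domain gene, and AtCDC48B (r = 0.994), a gene of the CDC48 family of AAA ATPases. For HSC70-1 they were HSP70-15 (r = 0.987), J3 (r = 0.986), a cytosolic J-domain co-chaperone, and ROF1 (r = 0.983), a relative of ROF2. The libraries share treatment, time and table, which separate the values into clusters, so these correlations describe the pattern over the 8 groups. ATERDJ3A averaged 139 ± 11.0 CPM in agb1 NAE, 26.6 ± 5.56 CPM in agb1 DMSO, 151 ± 7.41 CPM in WT NAE and 14.3 ± 2.12 CPM in WT DMSO libraries at 3 h. J3 averaged 724 ± 13.9 CPM, 469 ± 30.8 CPM, 983 ± 72.9 CPM and 406 ± 12.8 CPM in the same groups.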

How the data were processed

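Poly(A) RNA libraries of 24 seedling samples, made with a stranded kit and read as pairs of 75 bp, were counted per gene locus. The authors deposited raw counts for each time point, and the submitters' processing notes name STAR as aligner and TAIR10 as genome build; the counting tool and its strand setting are not given in the sources used here. The deposited normalized signal, for which the submitters' processing notes name DESeq2, equalled the counts divided by 1 factor per library within 9.31e-10 and served only as a check. All columns matched a sample, and 0 were unused.

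Low loci were removed with filterByExpr of edgeR, given the groups, a least count of 10 and a least total of 15. At 3 h 20672 loci were tested, at 1 h 21255 and over both times 21700. After TMM scaling, the robust quasi-likelihood test of edgeR 4.0.16 (limma 3.58.1, R 4.3.3) used the 12 libraries of a time point, or all 24 for changes between times. P-values were Benjamini-Hochberg adjusted over all loci, with a threshold of 0.05. Levels are CPM with the SD of 3 libraries, and between genes CPM per kb of the RefSeq TAIR10.1 transcript. Simulated counts with seeded changes were used to test the fit. Groups came from the labels. Total counts of 18.0 to 61.9 M per library set the counting error.

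Members, their split into inducible and constitutive, and gene lists were chosen with earlier results of these data known. All 10 members are named, and from each list the 2 called genes with the smallest p in each NAE effect, AGB1, and the 3 loci most like HSP101 and HSC70-1. Alternatives were RLE scaling, no filter on low counts, DESeq2 1.42.0, other sets of libraries in the fit, the replicate number as a block, leaving out each library, coding lengths and, added after the data were seen, an offset for a trend with transcript length.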

Additional observations from a re-analysis of the deposited data

Results flagged for a closer look

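The response of the inducible chaperones to NAE at 3 h stood out because it differed between the genotypes in a test of the difference itself (edgeR's quasi-likelihood test, 3 libraries in each of 4 groups). The differences, agb1 minus WT on the log2 scale, were -1.39 for HSP101, -1.59 for HSP70, -1.58 for HSP70T-2 and -1.72 for HSP90.1, with adjusted p from 0.000610 to 0.00672. Each of the 3 agb1 DMSO libraries was above each of the 3 WT DMSO libraries in these genes. Under NAE at 3 h, in the fit of all 12 libraries, only HSP90.1 of these genes was called lower in agb1 (-0.52). HSP101 (-0.38), HSP70 (-0.19) and HSP70T-2 (-0.039) were not called.

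The NAE effect also differed between the times, 3 h minus 1 h. In agb1 the change was 2.06 for HSP101, 1.12 for HSP70, 2.55 for HSP70T-2 and 0.95 for HSP90.1. Of the constitutive members, HSC70-1 had 0.59, HSC70-3 had 0.79 and HSP90.2 had 0.93 in agb1. In WT the change was 3.29 for HSP101, 2.68 for HSP70, 4.16 for HSP70T-2 and 2.68 for HSP90.1. HSC70-1 had 0.60, HSP70-2 had 1.08, HSC70-3 had 1.18 and HSP90.2 had 1.40 in WT. The adjusted p-values of these changes ran up to 0.0206, that of HSC70-1 in agb1. DMSO levels of the same genes differed between the times as well, and the part of that shift in these changes was not tested.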

How the results depend on the processing

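Each of the 12 comparisons of the 10 members was recomputed under 12 or 18 alternatives, 1680 values in all. Of these, 1635 kept their side of the threshold (69 of them, all uncalled, changed sign) and 32 lost a call. A call was gained with the same sign by 12 and with the opposite sign by 1. For NAE in WT at 1 h, leaving out 1 library gave 5 to 8 called members (8 with all libraries). For agb1 against WT under NAE at 3 h, 2 members were called, against 1 with no low-count filter, 1 with the offset for transcript length, 5 in a fit of the 2 groups alone and 0 to 1 without 1 library. Over all loci 4743 were called, against 4442, 5046, 5936 and 2812 to 4687 in the same cases. The call with the opposite sign was for the genotype difference of HSP70-2 (AT5G02490) under DMSO at 3 h, which was 0.0075 and uncalled with all libraries. It was -0.44 without replicate 2 of agb1 DMSO, with a range of -0.44 to 0.20 over libraries left out. The cause was not tested in any of these cases. The labels do not say what the replicate number shares. Correlations of same-numbered deviations ran from -0.18 to 0.26, and none of 12 pairs of groups had all 3 above 0.1. With 3 libraries in a group this shows no strong shared effect and cannot exclude pairing. With the replicate block, NAE at 3 h gave 8 called members in agb1 and 9 in WT. Over all loci it gave 10153 calls in agb1 and 11861 in WT. At 1 h NAE gave 4 members in agb1 and 7 in WT, with 2839 and 4135 calls over all loci. The difference at 3 h gave 4 members, with 564 calls over all loci. The genotypes under DMSO at 3 h gave 4 members, with 3692 calls over all loci. With that block HSP70-2 lost its calls in WT at 1 h (0.67) and under NAE at 3 h (-0.67), and HSP90.4 gained one there (0.43). Of all loci, 613 were called for the difference at 3 h, 1391 by DESeq2 and 189 to 1394 without 1 library; at 1 h 16 were called, 81 by DESeq2, 5 with the offset and 1 to 32 without 1 library. Without 1 library the counts fell to 2684 of 4348 for NAE in WT at 1 h, and for agb1 against WT to 2812 of 4743 (NAE, 3 h), 2503 of 3921 (DMSO, 3 h; 2466 in a fit of these groups alone), 1071 of 1907 (NAE, 1 h) and 851 of 2419 (DMSO, 1 h). RLE scaling changed the 80 group levels by factors of 0.969 to 1.025. Of 792 recomputed list counts, 731 stayed within 1.5 times their value. The 61 others were mostly at 1 h in WT (small heat shock proteins 1 to 6 against 4, organelle HSP70s 1 to 5 against 3, organelle HSP90s 0 to 3 against 2, heat response partners 1 to 2 against 1) and in the difference at 3 h (co-chaperones 3 to 9 against 9, heat shock factors 0 to 2 against 1, organelle ClpBs 0 to 1 against 1). For the small heat shock proteins the difference at 3 h kept 6 to 8 calls against 7.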
